A study of Mus musculus with 23 samples.

Results

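In the 11 hippocampus libraries of Ins2-/- mice (KO), the counts assigned to Rps13-ps1 lay at 3 separate levels. The libraries are described here by that level. Rps13-ps1 (ENSMUSG00000066362) is a processed pseudogene of the ribosomal protein gene Rps13. Reads that match both genes can be counted for either, so its level is one of assigned reads. The libraries were chosen by their measured Rps13-ps1 level alone. A KO library was placed in the Low step when Rps13-ps1 was under 10 CPM (counts scaled to a library total of 1000000), in the Middle step from 10 to 60 CPM, and in the High step over 60 CPM. The Low step held 3 libraries (KO_2, KO_6 and KO_16), the Middle step held 5 (KO_4, KO_8, KO_12, KO_21 and KO_22) and the High step held 3 (KO_9, KO_13 and KO_18), together 11 of the 23 libraries of the study. The other 12 libraries came from Ins2+/+ mice (WT), which the rule did not use. With the same limits, 11 WT libraries fell in the Low step, 1 (WT_19) in the Middle step and 0 in the High step.

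All 23 libraries came from the hippocampus of female Mus musculus, and the study compared mice with and without Ins2, the insulin gene with reported expression in brain, in relation to learning and memory. The labels give no age, litter, background strain or batch, and no construction of the Ins2-/- allele. Nothing states that each library came from a separate animal, so the p-values measure the spread between these libraries. Library totals lay between 13792274 and 22953261 counts. Ins2 had 0 counts in all 11 KO libraries, and in WT it ranged from 0 to 1.09 CPM, so its level is too low to check each label. Ins2 lies on chromosome 7, 26.4 Mb from Rps13.

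RPS13 is a protein of the small (40S) ribosomal subunit and is made in all cells. Ribosomal protein mRNAs have often been copied back into the genome by reverse transcription. Such processed pseudogenes lack introns, are usually not transcribed, and keep nearly the sequence of the parent mRNA, so that short reads from parent and copy are hard to tell apart. Gdpd3, the other gene proposed to follow the steps, encodes an enzyme of the glycerophosphodiester phosphodiesterase family that releases lysophosphatidic acid from lysophospholipids.

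Rps13 lies at chr7:116331505-116334195 on the minus strand, and Rps13-ps1 at chr8:87047689-87048226 on the plus strand (GRCm38, GENCODE M21). Rps13-ps2, at chr7:88530446-88530898 on the minus strand, and Rps13-ps4, at chr8:119602170-119602625 on the minus strand, are further processed pseudogenes. The coding sequence of Rps13 has 453 bases. Rps13-ps2 differed from it at 0 positions, Rps13-ps1 at 2 positions (T411C and A429G, counted from the A of the start codon, Rps13 base first) and Rps13-ps4 at 3 (C106A, G121C and T411C). Both differences of Rps13-ps1 are at the third base of a codon, and both are in the last 90 coding bases, which are shown because only reads over them can separate Rps13 from Rps13-ps1 within the coding sequence. Positions 364 to 453 are given 5′ to 3′, and capitals mark the positions at which any of the sequences differ.
Rps13: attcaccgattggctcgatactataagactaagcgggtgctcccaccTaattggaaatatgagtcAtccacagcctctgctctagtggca
Rps13-ps1: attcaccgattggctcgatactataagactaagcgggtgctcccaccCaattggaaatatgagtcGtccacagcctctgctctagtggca
Rps13-ps2: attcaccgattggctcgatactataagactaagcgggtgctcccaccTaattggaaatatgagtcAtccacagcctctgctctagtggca
Rps13-ps4: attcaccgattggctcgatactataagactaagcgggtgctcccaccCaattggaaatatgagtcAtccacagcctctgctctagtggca

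The level of Rps13-ps1 is what defined the steps and is given as a description. In the Low step Rps13-ps1 was at 5.56 CPM in KO_2, 4.43 in KO_6 and 3.25 in KO_16. In the Middle step it was at 41.3 CPM in KO_4, 48.0 in KO_8, 40.4 in KO_12, 47.8 in KO_21 and 33.0 in KO_22. In the High step it was at 74.4 CPM in KO_9, 77.7 in KO_13 and 70.2 in KO_18. The libraries nearest to the limits were therefore KO_2 and KO_22 around 10 CPM, and KO_8 and KO_18 around 60 CPM, with no library between them. The 11 WT libraries of the Low step had a lowest value of 2.31, a median of 4.41 and a highest of 5.27 CPM. WT_19, at 42.4 CPM, lay inside the range of the KO Middle step and outside that of every other WT library.

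Rps13 itself went the other way. Its level was 102 CPM in KO_2, 86.7 in KO_6 and 98.2 in KO_16, against 62.7 in KO_4, 58.2 in KO_8, 61.5 in KO_12, 62.5 in KO_21 and 44.2 in KO_22. In the High step Rps13 was at 30.1 CPM in KO_9, 30.3 in KO_13 and 28.3 in KO_18. The 3 steps did not overlap, and their means were 95.8 ± 8.18 (SD, n = 3), 57.8 ± 7.83 (SD, n = 5) and 29.6 ± 1.1 (SD, n = 3) CPM. WT_19 had 50.0 CPM of Rps13, below the lowest of the other 11 WT libraries at 76.8 CPM. No test over the steps is given for Rps13 or its copies. Reads that match more than one of them can be counted for either, and Rps13-ps1 chose the steps.

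Rps13-ps2, whose sequence equals the Rps13 coding sequence, followed Rps13. It was at 5.82 CPM in KO_2, 7.46 in KO_6 and 6.56 in KO_16. In the Middle step Rps13-ps2 ranged from 0.744 CPM in KO_12 to 3.08 in KO_22. It had 0 counts in KO_9, KO_13 and KO_18, where 3 counts over the High step would be 0.0532 CPM, a limit that covers counting error only. Since its sequence equals that of Rps13 over the coding bases, a count of 0 can also reflect how shared reads were assigned, and no fold is given. WT_19 had 0.524 CPM and the other WT libraries 4.01 to 9.55 CPM. Rps13-ps4 stayed at or below 1.05 CPM in all 23 libraries, with KO means of 0.518 CPM in Low, 0.444 in Middle and 0.343 in High. Rps13-ps5, Rps13-ps6 and Gm15483, the remaining copies in the table, were too low for the trend fit.

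**Figure D1:**
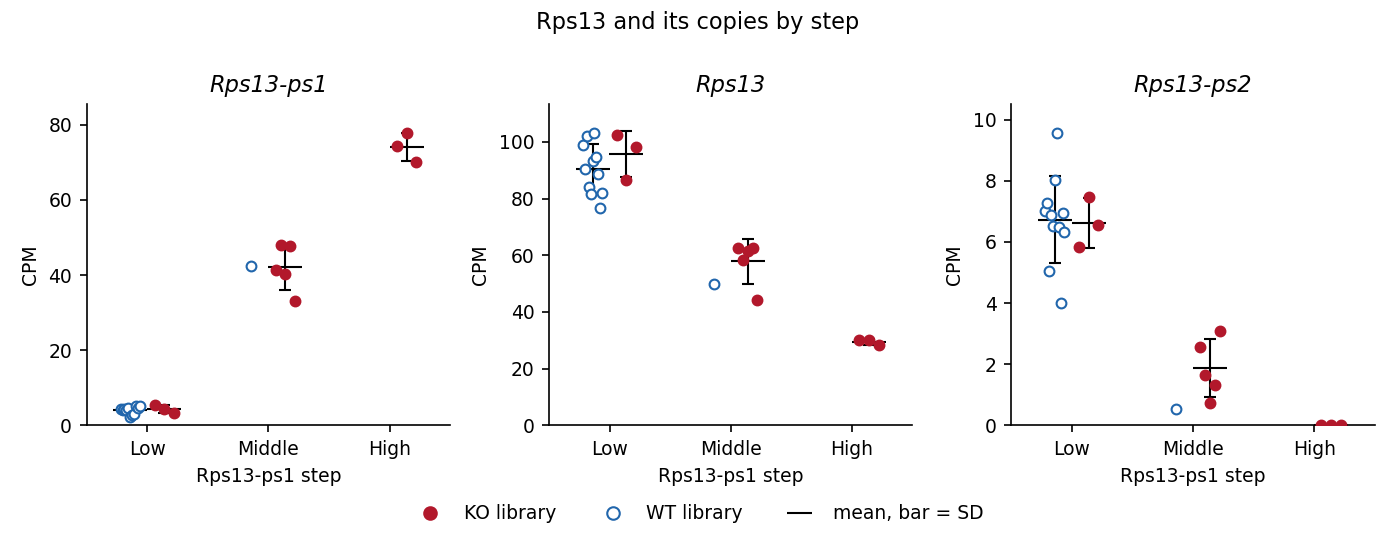
CPM of Rps13-ps1, Rps13 and Rps13-ps2 (vertical axes, from 0) in each library, by Rps13-ps1 step (horizontal axis). Filled points are KO and open points are WT libraries, with the mean and SD of each group of more than 1 library. Rps13-ps1 defined the steps, Rps13 falls in 3 bands from 95.8 to 29.6 CPM in KO, and the single WT library of the Middle step sits at 50.0 CPM of Rps13.

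The 2 genes nearly balanced each other. The sum of Rps13 and Rps13-ps1 averaged 100.2 ± 8.55 CPM in the Low step, 99.95 ± 13.1 in the Middle step and 104 ± 4.79 in the High step (SD, n = 3, 5 and 3). Within that sum, the share counted for Rps13-ps1 was 3.20 to 5.14% in Low, 39.6 to 45.2% in Middle and 71.2 to 71.9% in High. WT_19 had a share of 45.9%, and the other WT libraries 2.41 to 6.0%. Rps13-ps1 is the numerator of this share and defined the steps, so the gaps between steps are a description. Within the High step the SD of the share was 0.402 percentage points.

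KO_22 had the lowest sum of Rps13 and all its copies, 80.6 CPM, where the other KO libraries had 98.6 to 115 CPM. The same library also had the lowest sum over 30 other 40S ribosomal protein genes, 3562 CPM against 4540 to 5578 CPM in the other KO libraries. Relative to those 40S genes, Rps13 and its copies made up 1.94 to 2.26% in all 11 KO libraries, with KO_22 at 2.26%, and 2.03 to 2.40% in the WT libraries.

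**Figure D2:**
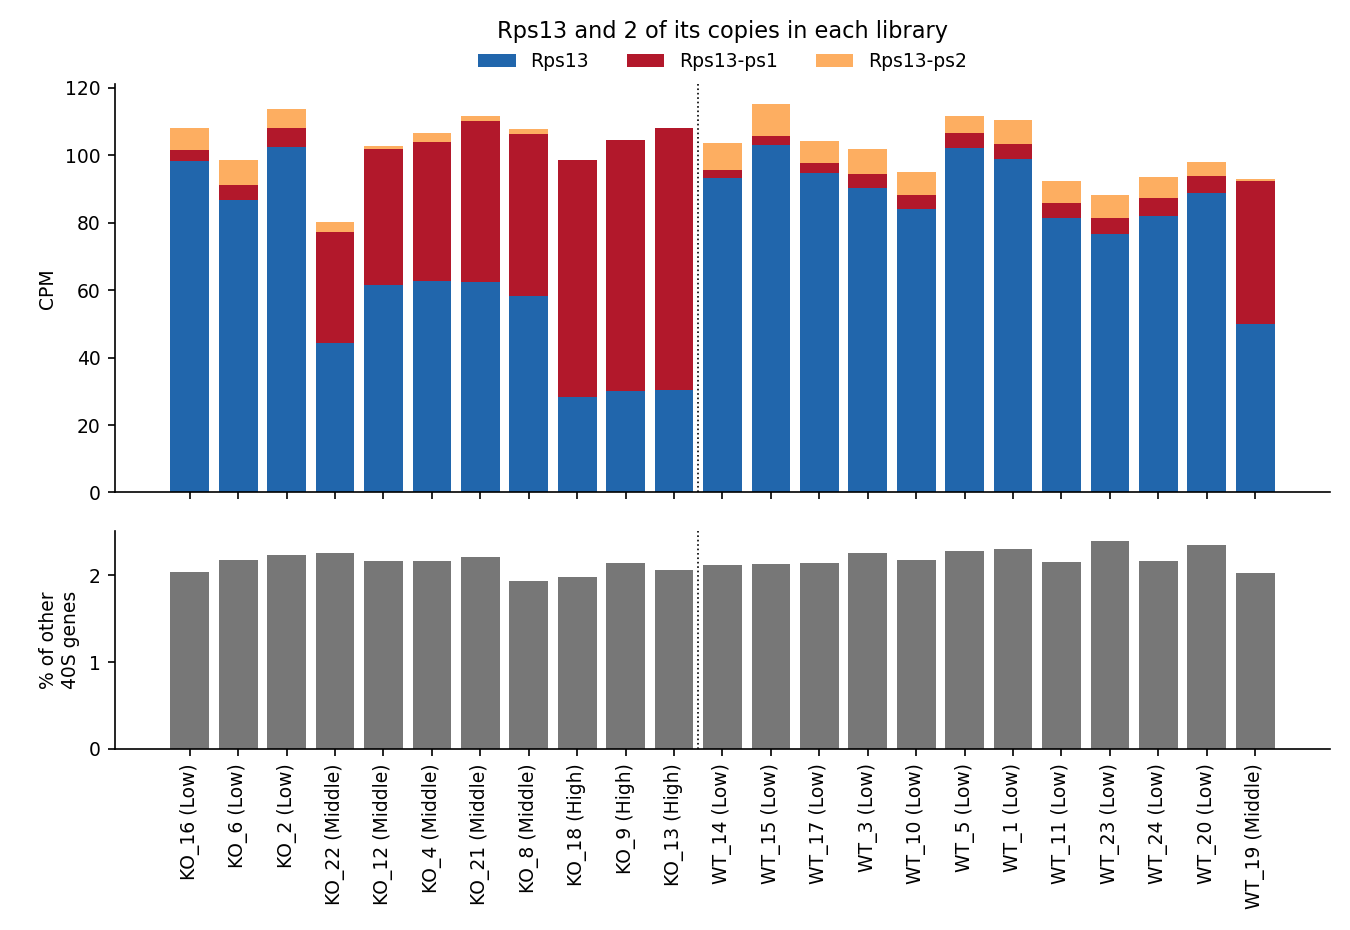
Stacked CPM of Rps13, Rps13-ps1 and Rps13-ps2 in each of the 23 libraries (upper panel), and Rps13 with all its copies as a percentage of the summed CPM of 30 other 40S ribosomal protein genes (lower panel). Libraries are ordered by genotype, step and Rps13-ps1 level, and the dotted line separates KO from WT. The division between Rps13 and Rps13-ps1 changes from step to step, while the percentage stays between 1.94 and 2.40%.

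The genes that lie beside Rps13-ps1 on chromosome 8 were compared over the same steps. None of the 3 tested genes on either side passed the test in the KO trend. Siah1a, N4bp1 and Zfp423, the best measured of them, had log2 changes per step of 0.06, 0.01 and 0.03. Of the 836 tested genes of chromosome 8, 0.120% had an unadjusted p below 0.01 in the KO trend, against 0.163% of all 16589 genes.

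Every other gene was then fitted over the steps, scored 0, 1 and 2, by edgeR's quasi-likelihood test with Benjamini-Hochberg adjustment. In the 11 KO libraries 0 of 16589 genes passed an adjusted p of 0.05 (0% called), the smallest adjusted p being 0.191. The unadjusted p was below 0.05 for 246 genes (1.48%), among them 149 that were lower (0.898%) and 97 that were higher with the step (0.585%). DESeq2 called 2 genes and limma voom called 2, with Dctn5 in both sets. In a fit over all 23 libraries with genotype as a second term, 4 of 16989 genes passed (0.0235%), and all 4 fell with the step. These were Dctn5, Rps15a, Tmc7 and Slx1b, and all 4 lie on chromosome 7, between 1.78 and 10.4 Mb beyond the start of Rps13. The call rested on the setting for all 4, and on the libraries for all but Dctn5. Leaving out 1 library at a time left between 1 and 4 genes called, and Dctn5 was called in each of the 23 fits. With log2 CPM of Rps13-ps1 in place of the step score, Dctn5 was not called (adjusted p 0.123, edgeR).

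**Figure D3:**
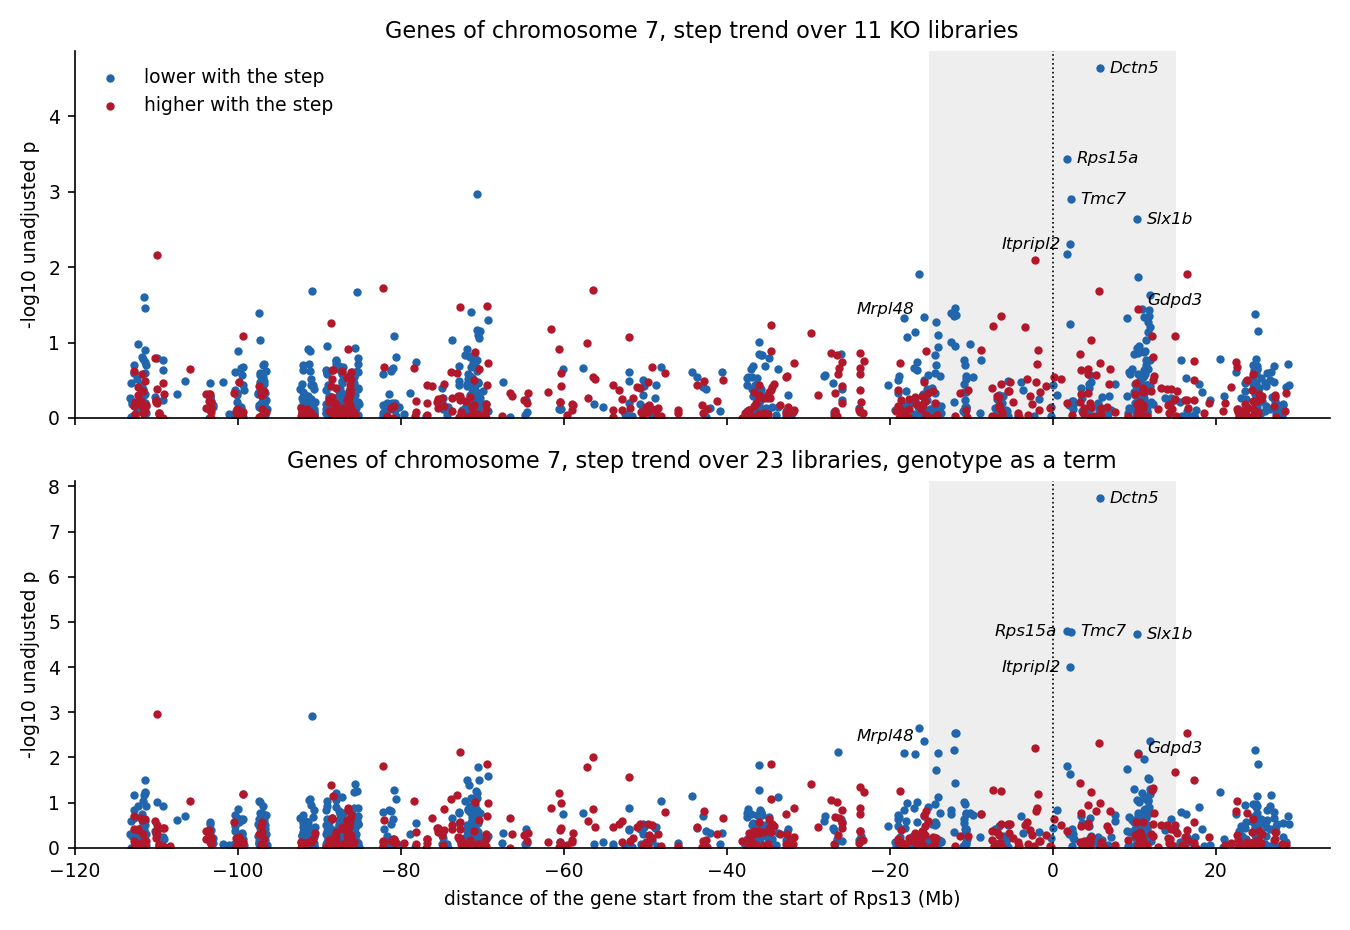
Minus log10 of the unadjusted p of the step trend (vertical axis) for the tested genes of chromosome 7, against the distance of the gene start from the start of Rps13 in Mb (horizontal axis), for the KO libraries (upper panel) and all libraries (lower panel). Blue genes are lower and red genes higher with the step, the shaded band is 15 Mb on either side, and the genes that match Rps13 are left out. The 4 genes called over all libraries sit within the band, with Dctn5 highest in both panels.

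Genes with small p-values were more frequent around Rps13 than elsewhere, although most such genes lay further away. Within 15 Mb of it, 7 of 286 tested genes (2.45%) had an unadjusted p below 0.01 in the KO trend, and 20 of the other 16303 genes (0.123%; all genes, 0.163%). Over all libraries the figures were 14 of 289 (4.84%) within that distance and 69 of 16700 (0.413%) outside it (all genes, 0.489%). All 4 called genes were inside the window and 0 outside. On the whole of chromosome 7, 9 of 1222 genes (0.736%) reached that p in KO, and each other chromosome had 0 to 4 such genes, at most 0.390%. The median change per step of the window's genes was -0.03 on the log2 scale, against -0.01 outside it. A median does not give the spread of these changes. The 3 tested genes on either side of Rps13 were not called, and Plekha7 and Pik3c2a, its closest neighbours, changed by -0.06 and -0.07 per step in KO.

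Dctn5 encodes a subunit of dynactin, the complex that links the motor dynein to its cargo. It lies at chr7:122133041-122149044, 5.80 Mb from Rps13. Dctn5 was at 69.1 CPM in KO_2, 62.1 in KO_6 and 65.0 in KO_16. In the Middle step it was at 58.2 CPM in KO_4, 61.8 in KO_8, 55.3 in KO_12, 58.5 in KO_21 and 56.9 in KO_22. In the High step Dctn5 was at 46.9 CPM in KO_9, 46.1 in KO_13 and 45.3 in KO_18. The 3 steps did not overlap and descended in order, which was so for 1 of the 16589 tested genes (0.00603%). Leaving out 1 KO library gave 1 to 15 such genes, the most without KO_16, and more than 1 without each KO library but KO_4 and KO_6. Dctn5 was among them each time. WT_19 had 54.4 CPM of Dctn5, and the other 11 WT libraries had 62.4 to 76.0, with a median of 67.0. Its log2 change per step was -0.24 ± 0.04 (SE) in KO, with an adjusted p of 0.191 in edgeR's test, and -0.25 ± 0.03 over all libraries, with an adjusted p of 7.76e-05. In the WT libraries alone, where the trend sets 1 library against 11, the change was -0.28 per step. Dctn5 shows no near-identical copy among the annotated transcripts, but it overlaps the antisense gene Gm15489.

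Rps15a, at chr7:118104372-118116188, encodes another protein of the 40S subunit. It was at 135 CPM in KO_2, 134 in KO_6 and 143 in KO_16, at 101 to 152 CPM in the Middle step, and at 92.9 CPM in KO_9, 106 in KO_13 and 96.4 in KO_18. KO_22 (101 CPM) overlapped the High step and KO_8 (152 CPM) exceeded the Low step. WT_19 had 117 CPM, second lowest of the 12 WT libraries. The change of Rps15a over all libraries was -0.22 ± 0.04 (SE) per step (adjusted p 0.045, edgeR), and in KO it was -0.23 ± 0.05 (adjusted p 0.9999). Rps15a has several processed copies that share reads with it, described further on, so its level is uncertain.

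Tmc7, at chr7:118535841-118584736, belongs to the transmembrane channel-like family. It was at 12.6 CPM in KO_2, 14.1 in KO_6 and 16.4 in KO_16, and at 7.16 CPM in KO_9, 7.10 in KO_13 and 6.27 in KO_18. In the Middle step 4 libraries had 10.1 to 11.6 CPM, while KO_8 had 20.7, above every other library. The change of Tmc7 over all libraries was -0.51 ± 0.09 (SE) per step (adjusted p 0.045, edgeR). In KO it was -0.53 ± 0.12 (adjusted p 0.9999, edgeR), and without KO_8 the adjusted p in KO was 0.0433. KO_8 also stood apart in markers of other regions: its mean log2 CPM over 12 hypothalamic genes was 5.82, where the other KO libraries had -1.37 to -0.63, and over 9 dentate gyrus genes it was 2.20, where they had 4.87 to 5.80. The part of these differences in the Tmc7 level was not tested.

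Slx1b, at chr7:126689468-126695784, encodes a structure-specific endonuclease subunit used in DNA repair. Its values were 15.4, 17.3 and 13.5 CPM in KO_2, KO_6 and KO_16, then 11.2 to 14.8 in the Middle step, then 11.3, 10.8 and 10.3 in KO_9, KO_13 and KO_18. Slx1b changed by -0.24 ± 0.05 (SE) per step over all libraries (adjusted p 0.045, edgeR) and by -0.25 ± 0.06 in KO (adjusted p 0.9999). KO_21, at 11.2 CPM, was within the High range, and WT_19, at 13.3 CPM, was below the other WT libraries, which had 14.8 to 17.2. The gene overlaps the pseudogene Gm6939 on the same strand by 567 bases, so its level is uncertain. It also overlaps Bola2 on the opposite strand, and Bola2 changed by -0.04 per step over all libraries.

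Of the other genes with the smallest p on chromosome 7 in KO, 2 lie close to Rps15a and Tmc7. Itpripl2 had mean levels of 6.67 CPM in Low, 4.53 in Middle and 2.72 in High, a change of -0.64 ± 0.14 (SE) per step over all libraries with an adjusted p of 0.213 in edgeR's test and 0.0057 in DESeq2. Arl6ip1, which encodes a membrane protein that shapes the endoplasmic reticulum, had means of 317, 279 and 206 CPM and an adjusted p of 0.9999. For both genes the Middle step overlapped the Low step. With the choroid plexus score, described further on, as a covariate, the change per step in KO moved from -0.64 to -0.39 for Itpripl2 and from -0.30 to -0.15 for Arl6ip1. Copb1, a subunit of the coat of retrograde Golgi vesicles, was the one gene higher with the step within 5 Mb of Rps13 at an unadjusted p below 0.01, with means of 68.5, 80.1 and 80.2 CPM and a change of 0.12 ± 0.04 (SE) per step in KO.

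**Figure D4:**
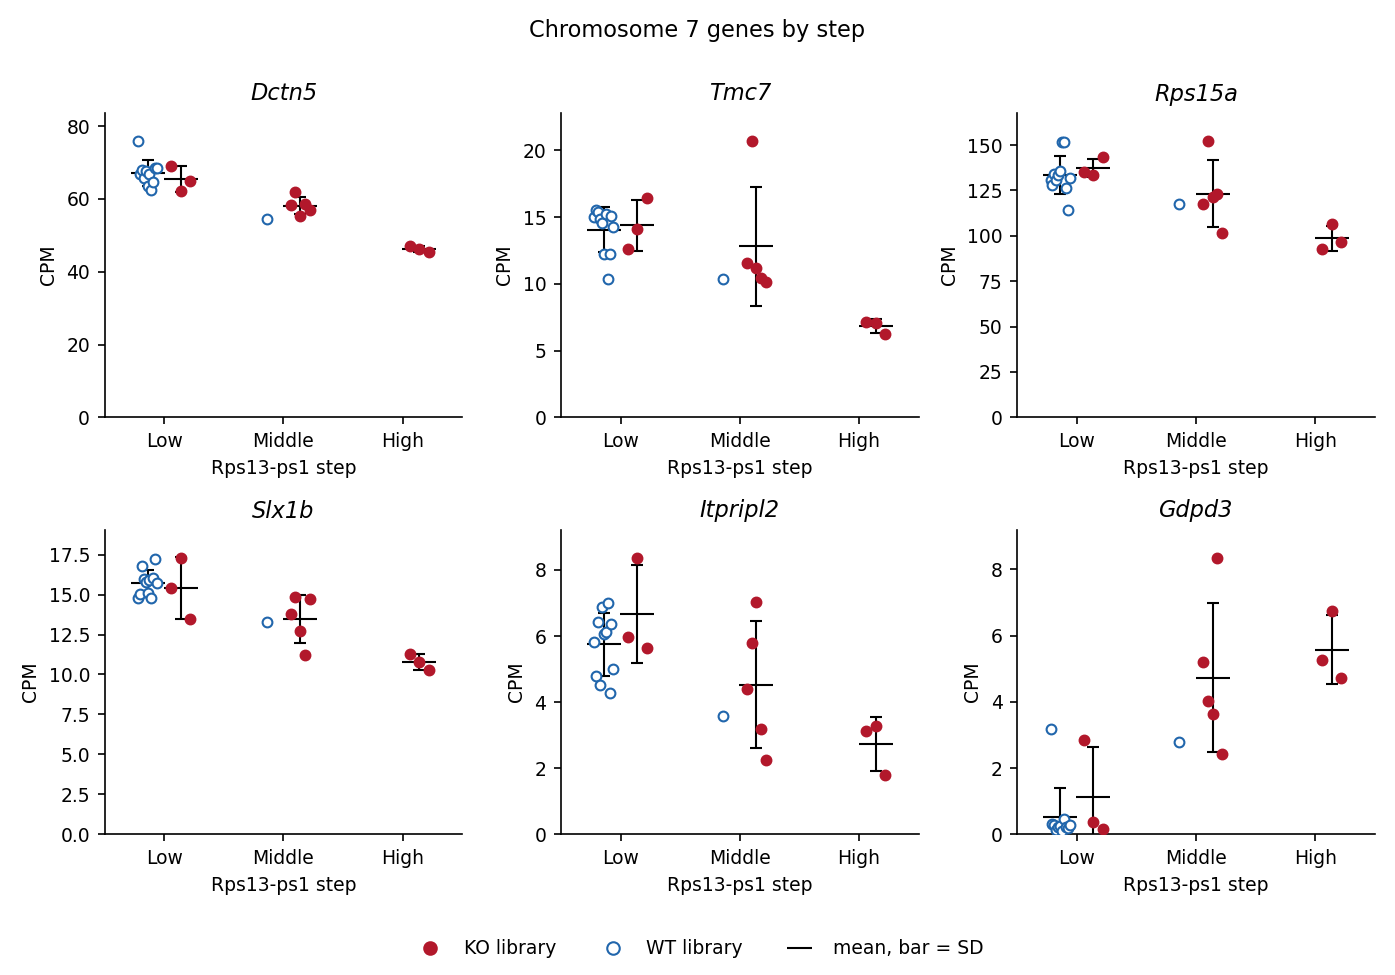
CPM (vertical axes, from 0) of Dctn5, Tmc7, Rps15a, Slx1b, Itpripl2 and Gdpd3 in each library by Rps13-ps1 step (horizontal axis). Filled points are KO and open points are WT libraries, with the mean and SD of each group of more than 1 library. Dctn5 descends without overlap in KO from 65.4 to 46.1 CPM, KO_8 is the high Tmc7 point at 20.7 CPM, and Gdpd3 in the Low step has 1 high library in each genotype.

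Gdpd3, at chr7:126766334-126775649, lies 10.4 Mb beyond Rps13. Its level was 2.86 CPM in KO_2, 0.362 in KO_6 and 0.157 in KO_16. In the Middle step Gdpd3 was at 5.22 CPM in KO_4, 4.01 in KO_8, 3.64 in KO_12, 8.36 in KO_21 and 2.44 in KO_22, and in the High step at 5.28 in KO_9, 6.76 in KO_13 and 4.71 in KO_18. KO_2 was thus within the Middle range, and Middle and High overlapped. In WT, Gdpd3 was at 2.78 CPM in WT_19 and 3.18 in WT_1, a Low library, while the other 10 WT libraries had 0.103 to 0.470 CPM. The change per step was 1.13 ± 0.47 (SE) in KO and 1.39 ± 0.48 over all libraries, with an adjusted p of 0.9999 in both by edgeR's test, so Gdpd3 did not pass in either. The libraries whose Gdpd3 level departed from the rest of their step were KO_2 and WT_1. Gdpd3 also did not pass in any fit that left out 1 library, KO_2 and WT_1 included. The smallest adjusted p in these fits was 0.9974 in KO and 0.5797 over all libraries (edgeR). The trend in WT rests on WT_19 alone, and leaving out WT_1 removes the WT library that departed. Such a fit cannot decide whether Gdpd3 follows the steps, and nothing is drawn from it.

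The genes around Gdpd3 and its family were read from lists. Of 27 listed genes of the Gdpd3 region in the table, 1 of 26 tested passed over all libraries (Slx1b, lower; all genes, 0.0235%), and 0 of 25 passed in KO (all genes, 0%). Their median change in KO was -0.03 per step, against -0.01 for all genes. Mapk3 and Ypel3, next to Gdpd3, changed by 0.01 and -0.04 per step in KO. Tbx6, a transcription factor of early mesoderm, averaged 0.921 CPM in Low, 0.654 in Middle and 0.341 in High. It did not pass in KO (unadjusted p 0.0136, adjusted p 0.9999, edgeR). Tbx6 had only 2 to 19 counts per KO library, and KO_16, at 0.565 CPM, lay within the Middle range. WT_19, at 0.829 CPM, ranked 8 from the lowest of the 12 WT libraries. Of 6 tested genes of the Gdpd family 0 passed in KO (all genes, 0%), and the 5 without Gdpd3 ranged from Gdpd5 at -0.12 to Gdpd1 at 0.07 per step. Gdpd5, also on chromosome 7, had a change of -0.16 ± 0.06 (SE) per step over all libraries (unadjusted p 0.0082, adjusted p 0.9999, edgeR). Of 20 tested genes of N-acylethanolamine and lysophosphatidic acid metabolism 0 passed in KO, with 0 at an unadjusted p below 0.05 (background 1.48%).

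Of 31 tested 40S genes other than Rps13, 1 passed over all libraries, Rps15a (all genes, 0.0235%), and 0 passed as higher. The list's median was 0.02 per step in both fits. None of 47 tested 60S genes passed in KO (all genes, 0%), with a median of 0.01. The summed level of the 40S genes without Rps15a was 4993 ± 403 CPM in Low, 4784 ± 749 in Middle and 5043 ± 195 in High (SD, n = 3, 5 and 3). Of 20 tested genes of insulin signalling 0 passed in KO, with a median of 0.01. Ccnd1, the cyclin D1 gene on distal chromosome 7, was at 24.5 to 30.8 CPM in the KO Low step, 22.5 to 34.3 in Middle and 27.3 to 31.2 in High, a change of 0.04 ± 0.06 (SE) per step in KO. In the 11 WT Low libraries Ccnd1 was at 46.3 to 72.5 CPM.

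Copies of Rps15a were read in the same way. Over all 23 libraries and 19338 genes with at least 50 counts, 4 genes (0.0207%) separated the 14 Low libraries from the 9 Middle and High libraries without overlap, a count that was added after the data had been seen. Dctn5 was lower in the 9 libraries, and Rps15a-ps2, Rps15a-ps8 and Mrpl48-ps were higher. These 3 are processed pseudogenes on chromosomes 19, 4 and 4, and their parent genes, Rps15a and Mrpl48, lie on chromosome 7 at 1.78 and 15.7 Mb from Rps13. The pseudogenes reached the minimum of 50 counts wholly (Rps15a-ps2 and Rps15a-ps8) or mostly (Mrpl48-ps, 289.3 of its counts against 42.6 in the Low libraries) through the libraries in which they were high, so their count supports nothing.

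Rps15a-ps2, at chr19:28742159-28742551, had 0 counts in all 14 Low libraries. It had 0.221 CPM in KO_4, 0.269 in KO_8, 0.180 in KO_12, 0.340 in KO_21 and 0.265 in KO_22, then 0.311 in KO_9, 0.937 in KO_13 and 0.575 in KO_18, and 0.268 in WT_19. Rps15a-ps8, at chr4:53791070-53791456, also had 0 counts in all 14 Low libraries, 0.275 to 0.420 CPM in the KO Middle step, 0.345 to 1.09 in the High step and 0.255 in WT_19. These are few reads, 61.7 counts of Rps15a-ps2 and 78.0 of Rps15a-ps8 over the 9 libraries. A count of 0 in a single Low library allows up to 0.133 to 0.218 CPM. The upper end of these limits covers the 0.180 CPM of Rps15a-ps2 in KO_12, and the other values of both copies in the 9 libraries lie above it. Such limits cover counting error only.

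Rps15a-ps2 and Rps15a-ps8 have 18 and 30 differences from the 390 coding bases of Rps15a, of which they share 5. Of these, 3 (A87G, C219A and C320T, counted from the start codon, Rps15a base first) are in none of the 6 other copies, Rps15a-ps1 and Rps15a-ps3 to Rps15a-ps7. The 61 bases around position 219 are shown because a read with this base matches only these 2 copies at that position. Capitals mark the positions at which either copy differs from Rps15a, C219A in both and C230T in Rps15a-ps2.
Rps15a: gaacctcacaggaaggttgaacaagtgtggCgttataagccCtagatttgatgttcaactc
Rps15a-ps2: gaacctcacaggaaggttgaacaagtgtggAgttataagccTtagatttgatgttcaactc
Rps15a-ps8: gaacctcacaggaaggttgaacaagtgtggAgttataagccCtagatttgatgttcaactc

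The sum of Rps15a and all its copies was 135 to 145 CPM in the KO Low step, 103 to 157 in Middle and 97.2 to 112 in High. The High range lay below the Low range. The sum of Rps13 and all its copies was 98.7 to 115 CPM in the KO Low step and 98.6 to 108.5 in High, ranges that overlap. The copies of Rps15a held 1.21 to 2.35% of the Rps15a sum in Low, 1.94 to 3.19% in Middle and 4.39 to 5.59% in High. In WT_19 the Rps15a copies held 1.99%, inside the 1.09 to 2.89% of the other WT libraries.

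Mrpl48-ps, at chr4:88599175-88599810, is a copy of Mrpl48, which encodes a protein of the large mitochondrial ribosomal subunit. It was at 0.102 CPM in KO_2, 0.207 in KO_6 and 0.212 in KO_16, and at 1.92 CPM in KO_4, 3.22 in KO_8, 1.88 in KO_12, 1.04 in KO_21 and 2.70 in KO_22. In the High step Mrpl48-ps was at 1.29 CPM in KO_9, 2.03 in KO_13 and 1.36 in KO_18, so that Middle and High overlapped. WT_19 had 1.6 CPM and the other WT libraries 0 to 0.462. The parent Mrpl48 was at 59.7 to 65.7 CPM in the KO Low step, 49.2 to 58.1 in Middle and 50.5 to 51.5 in High, with 49.2 in WT_19, the lowest of the WT libraries. Over all libraries Mrpl48 had a change of -0.14 ± 0.04 (SE) per step and did not pass (adjusted p 0.9999, edgeR). Mrpl48-ps was added because it separated the libraries, so no fitted change is given for it. Mrpl48 overlaps Rab6a, and the submitters' notes do not say how the counting used strand.

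**Figure D5:**
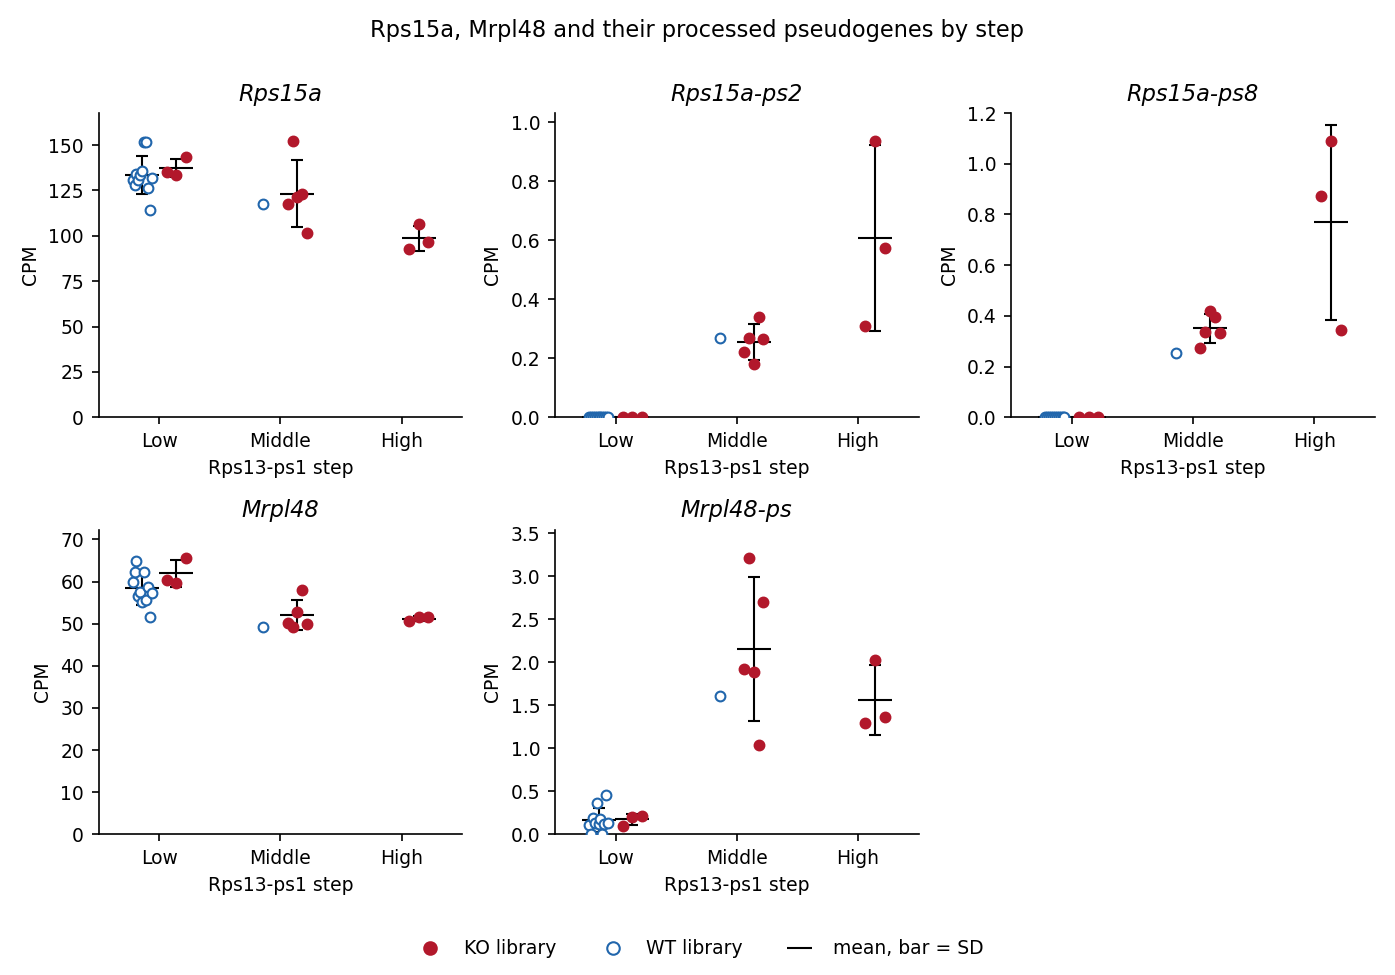
CPM (vertical axes, from 0) of Rps15a, Mrpl48 and their processed pseudogenes in each library by Rps13-ps1 step (horizontal axis). Filled points are KO and open points are WT libraries, with the mean and SD of each group of more than 1 library. The 3 pseudogenes are at or near 0 in the 14 Low libraries and above the Low range in the 9 others, at no more than 3.22 CPM.

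WT_19 is the 1 library of the Middle step that the rule did not use. For Rps13, Rps13-ps2, Dctn5, Tmc7, Slx1b, Itpripl2, Arl6ip1 and Mrpl48 it was the lowest of the 12 WT libraries, and for Mrpl48-ps the highest. Rps15a, Rnf169, Dbp and Copb1 ranked 2, 4, 8 and 9 from the lowest. Mrpl48 and Mrpl48-ps were added because Mrpl48-ps separated libraries that include WT_19, so their ranks follow in part from that choice. Rps13 and Rps13-ps2 can share reads with Rps13-ps1, whose level set WT_19 apart, so their ranks can follow from that level. Dctn5, Tmc7 and Slx1b were among the 10 genes of smallest p on chromosome 7 in KO, which uses no WT library, but were also called in the fit that includes WT_19. These ranks are therefore a description. Of the 16989 genes of the all-library fit, WT_19 was the lowest WT library for 7.63% and the highest for 5.69%. For Tmc7 the margin was small, 10.33 against 10.34 CPM in the next library. The trend in WT called 0 of 17381 genes (0% called; edgeR, 435 at an unadjusted p below 0.05, 2.5%), with 1 library against 11. The test of a difference in the step effect between the genotypes called 0 of 16989 genes (0% called; edgeR, 277 at an unadjusted p below 0.05, 1.63%), and since the WT slope rests on 1 library, this count does not show that the genotypes act alike. Among the genes of smallest p in WT, Derl3 was at 0.0638 CPM in WT_19 against 0.675 to 1.45 in the other WT libraries. Lrp2, an endocytic receptor, was at 0.765 CPM against 2.56 to 5.51. In KO, Derl3 changed by -0.40 and Lrp2 by 0.05 per step, and neither passed edgeR's test.

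Markers of other tissue were unevenly spread over the steps. KO_2, KO_6 and KO_12 had 50912, 146136 and 208556 counts of Ttr, the transthyretin transcript that is abundant in choroid plexus, where the other KO libraries had 7 to 1173. Thus 2 of 3 Low, 1 of 5 Middle and 0 of 3 High libraries carried it. Summed as a mean log2 CPM over all 12 choroid plexus markers, the level was 1.09 to 6.63 in Low, -0.32 to 7.55 in Middle and -0.19 to 1.36 in High. KO_16, with 1.09, was the Low library inside the High range. In KO 0 of the 12 markers passed the test (all genes, 0%), and all 12 had a negative change per step, with a median of -2.04, where 52.6% of all genes did. All 5 blood genes and all 5 endothelial genes had negative changes too, with medians of -0.42 and -0.27, and 0 passed, although 3 blood genes and 1 endothelial gene had an unadjusted p below 0.05 (all genes lower with the step, 0.898%). The hippocampal field and glial lists had medians between -0.03 and 0.07. In bulk tissue, fewer cells of a type and less RNA per cell cannot be told apart. Without the 5 libraries with over 1000 CPM of Ttr, 3 genes were called over all libraries (Dctn5, Tmc7 and Arl6ip1). With the choroid plexus score as a covariate 2 were called over all libraries (Dctn5 and Tmc7), and the adjusted p was 0.392 for Rps15a and 0.1535 for Slx1b (edgeR). The changes per step of Rps15a and Slx1b were then -0.19 and -0.25, against -0.22 and -0.24 without the covariate. That of Arl6ip1 was -0.10 over all libraries with the covariate and -0.31 without it. The part of these markers in the step trends was not tested further. KO_12, the Middle library with the most Ttr, lay outside the range of the other Middle libraries for some of the genes described and inside it for others. It had 7.02 CPM of Itpripl2 against 2.25 to 5.79, 378 of Arl6ip1 against 219 to 299, 55.3 of Dctn5 against 56.9 to 61.8, and 0.744 of Rps13-ps2 against 1.32 to 3.08. For Rps13, Rps15a, Tmc7, Slx1b, Gdpd3, Mrpl48 and Mrpl48-ps it lay inside that range. Any 1 of 5 libraries is often the lowest or highest, and no share over all genes was counted. The part of choroid plexus RNA in these values was not tested.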

How the data were processed

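Hippocampal RNA of female mice was made into 23 stranded mRNA libraries (12 Ins2+/+, 11 Ins2-/-), per the labels' protocols. Per the submitters' processing notes, bcl2fastq, STAR and the mm10 build were used; the counting program and its use of strand are not given in the sources used here. The authors deposited 1 table of estimated counts for 45706 genes, in which 24.6% to 27.2% of a library's non-zero values were fractional, so reads that match several genes can have been divided. The table had 0 unmatched columns.

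Counts were rounded to whole numbers and fitted in edgeR 4.0.16 (R 4.3.3) with TMM scaling, filterByExpr by step, and robust quasi-likelihood tests of a step score (0, 1 or 2), adjusted by Benjamini-Hochberg over all genes tested, with calls at an adjusted p below 0.05. The genes kept in the KO fit held 99.88% of the KO counts. Standard errors were derived from each fold change and its F. Fits covered the KO, the WT and all libraries, the last with genotype as a term, and the interaction. CPM in the text divides by the library total. Scores of marker lists are mean log2 CPM with a prior count of 2. Transcripts of GENCODE M21 were matched to Rps13 over at least 150 bases at 90% identity (BLAST 2.17.0). Rps13 and those that matched were fitted but left out of counts of called genes. They are described without a test of the step trend. Alternatives were RLE scaling, DESeq2 1.42.0, limma 3.58.1 voom, other filters and codings, a choroid plexus covariate, and leaving out libraries. Only the KO and the all-library step trends were tried on simulated counts. Those counts varied less between libraries than the data and held larger changes than that of Dctn5.

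Genes named were Rps13, its copies, Gdpd3, Ttr, Ins2 and Ccnd1, genes called, the 10 genes of smallest p on chromosome 7, genes with steps that did not overlap, 3 neighbours on each side of Rps13-ps1, Rps13 and Gdpd3, and listed genes; Mrpl48 and the Rps15a and Mrpl48 copies were added with their values known. The library groups, gene lists and tests were chosen with earlier results of these data known, and no agreement with those results is independent support.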

Additional observations from a re-analysis of the deposited data

Results flagged for a closer look

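In the 5 libraries of the KO Middle step, 26 values were checked by Dixon's test for a library far from the others, and 7 exceeded the 95% critical value. Chance flags about 1 in 20 groups, and several of the values below come from the same library. KO_8, KO_12 and KO_22 account for all 7.

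KO_22 had 44.2 CPM of Rps13, where the other 4 Middle libraries had 58.2 to 62.7 CPM. It had 77.3 CPM of Rps13 and Rps13-ps1 together, where they had 101.9 to 110.3 CPM. Rps13-ps1 chose the steps and can share reads with Rps13, so both flags of KO_22 are a description. KO_12 had 12520 CPM of Ttr, where the others had 0.471 to 20.8 CPM, and a choroid plexus score (mean log2 CPM of 12 markers) of 7.55, where the others had -0.32 to 1.13. KO_8 had 20.7 CPM of Tmc7, where the others had 10.1 to 11.6 CPM. Its hypothalamus score was 5.83, where the others had -1.37 to -0.84, and its dentate gyrus score was 2.21, where the others had 5.16 to 5.80.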

How the results depend on the processing

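The KO trend called 0 genes under every alternative run except DESeq2 (2: Dctn5, Rps15a), limma voom (2: Dctn5, Tmc7) and leave-one-out, which gave 0 to 1 (Tmc7 without KO_8). The all-library trend called 4. It called 1 with RLE size factors (Dctn5) and 2 with a choroid plexus covariate. It called 7 with DESeq2 (Itpripl2 among them) and 2 without WT_19 and KO_8. With log2 CPM of Rps13-ps1 in place of the step score it called 1 (Mrpl48-ps). With no filter on low counts it also called 4, of which 2 (Dctn5, Tmc7) were shared with the fit reported and the others were Rps15a-ps2 and Rps15a-ps8. These 2 and Mrpl48-ps were described because they separate the libraries, so their calls support nothing. Leaving out 1 library at a time gave 1 to 4 (1 without KO_4, for example), and Dctn5 was called in all 23 fits, with an adjusted p of at most 0.00299. Over all its alternatives the adjusted p of Dctn5 was 9.04e-12 to 0.123, of Rps15a 0.000569 to 0.703, of Tmc7 0.000181 to 0.999 and of Slx1b 0.0025 to 1. The WT trend called 0 to 1 with leave-one-out and 1 (Hist1h2ap) with the choroid plexus covariate; without WT_19 it could not be fitted. The interaction called 0 under every alternative run. Genes with KO steps in order without overlap numbered 1 to 15 with leave-one-out, the most without KO_16. The genes that separate Low from the other libraries numbered 4 to 5 with leave-one-out and 2 (Dctn5, Mrpl48-ps) with a minimum of 200 counts; the pseudogenes reach either minimum only through the libraries in which they are high, so this says nothing on stability.

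The library total rose by 401400 counts per step (exact permutation test, two-sided, p = 0.727), and leave-one-out gave -724418 (without KO_13) to 1324500. The change of Ccnd1 was 0.01 per step over all libraries. With log2 CPM of Rps13-ps1 in place of the step score it was -0.006 per log2 unit. Per step it was -0.005 with the choroid plexus covariate and -0.047 without the 5 choroid plexus libraries. With leave-one-out it was -0.024 to 0.043 (below 0 without KO_2 and, at -0.017, without KO_13). In KO it was -0.004 without KO_2, KO_6 and KO_12. Causes were not tested. Alternatives without KO_2, KO_6 and KO_12, without choroid plexus libraries or without WT_19 and KO_8, and the pseudogene counts, were added after the data were seen. No paired analysis was possible because no replicate number occurs in both genotypes. Depth limits the Rps15a copies, with at most 25.04 counts of Rps15a-ps2 or Rps15a-ps8 per library, and 3, 5 and 3 libraries limit the KO trend.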

Other observations

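Dbp and Ciart were among the genes of smallest p in the KO trend. Dbp, on chromosome 7 but 70.6 Mb from Rps13, had means of 61.2 ± 13.7 CPM in Low, 44.7 ± 4.84 in Middle and 37.9 ± 4.06 in High (SD, n = 3, 5 and 3), a change of -0.34 ± 0.08 (SE) per step with an adjusted p of 0.9999 in edgeR's test. Over all libraries Dbp had an unadjusted p of 0.0604. Its 11 WT Low libraries had 21.1 to 67.9 CPM, which covers the KO Middle and High steps. Ciart changed by -0.37 ± 0.08 (SE) per step in KO, with an adjusted p of 0.9999.

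Gm20715, 110 Mb from Rps13 near the other end of chromosome 7, was higher with the step, at 0.555 CPM in Low, 0.738 in Middle and 1.06 in High on average. WT_19 had the most of it among the 12 WT libraries, 1.26 against 0.536 to 1.116 CPM. The change over all libraries was 0.50 ± 0.14 (SE) per step, which did not pass (adjusted p 0.9999, edgeR). Tecta was higher in WT_19, at 1.34 CPM, than in the other WT libraries, at 0 to 0.404 CPM, and had changed by -0.36 per step in KO, an adjusted p of 0.9999.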
